A study of Mus musculus with 8 samples.

Results

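Macrophage markers were examined in RNA flushed from mouse thoracic aortas: Cd68, Adgre1, Lyz2, Csf1r, Mrc1, Cd163, C1qa, C1qb, C1qc and Fcgr1. These 10 genes were picked as markers of the cell type, with earlier results of these data known, and each was taken where a probe set of the array carried that single symbol. All 10 had 1 such probe set, out of 30063 genes measured with a single symbol. Aortas of 4 EKO mice, in which Mef2c was to be deleted from endothelium, were set against those of 4 control mice. The EKO mice were female, carried the tamoxifen-inducible recombinase Cdh5-CreERT2 and floxed Mef2c (Mef2c f/f), and received tamoxifen in sunflower seed oil with 10% ethanol on 5 successive days from 10 weeks of age. The control mice were female littermates with the same Cre transgene and floxed alleles that were injected with the oil and ethanol alone. Harvest was at 14 days from the first injection, and each array held the RNA of a single aorta, so the arrays are 4 against 4. The labels call the tissue thoracic aortic endothelium, and the RNA came from lysis reagent (TRIzol) passed through the vessel lumen, so cells of the deeper wall were not targeted. Cdh5-CreERT2 is driven by the promoter of the VE-cadherin gene and is meant to recombine in endothelial cells, not in macrophages. Tamoxifen was given to EKO mice alone, so effects of the drug and of the deletion cannot be told apart.

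Macrophages live in the outer coat and, in smaller number, the inner lining of healthy arteries, where they clear debris, sample the blood stream and depend on signals through the CSF1 receptor. They are recognised by the scavenger receptors CD163 and CD206 (Mrc1), by the adhesion-type receptor F4/80 (Adgre1), by the lysosomal protein CD68, by lysozyme (Lyz2), by the high-affinity IgG receptor (Fcgr1) and by C1q, the recognition molecule of the classical complement pathway that tissue macrophages secrete. Several of these genes are shared: Lyz2 is also abundant in monocytes and neutrophils, and Mrc1 in lymphatic endothelium.

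Only some of the 10 markers stood clear of the low end of the arrays. Cd68 and Lyz2 read above the 95th percentile of 1079 olfactory receptor genes on all 8 arrays. Olfactory receptor genes serve here as genes with little transcript in an artery, and their 95th percentile lay between 6.41 and 6.84 on the log2 scale. Csf1r and C1qa passed it on 5 arrays each, Adgre1 on 4, Mrc1 on 2 and C1qb on 1. Cd163, C1qc and Fcgr1 passed it on 0 arrays. Over all 30063 genes, 41.2% passed on every array and 49.0% on none. The median of 5222 control probe sets marked neg was higher still, between 7.34 and 7.45. Lyz2 exceeded that median on 8 arrays, Cd68 on 7, Csf1r on 4 and the other markers on 0. Olfactory receptor genes were chosen for this after the values had been seen, and a low reading does not show that a gene was silent. Among endothelial markers in the same RNA, Cdh5 averaged 16.4 and Pecam1 18.2 over the 8 arrays, whereas Kdr, the main receptor for vascular endothelial growth factor, averaged 6.81 and Robo4 6.25. The probe set of a gene known in endothelium can thus read as low as most macrophage markers did. The mean over the arrays was above 6.14 for 7 markers; that value, the median over every probe set, was the level required for the test. Cd163, C1qb and Fcgr1 fell below it, and their differences come from a fit without that requirement.

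**Figure D1:**
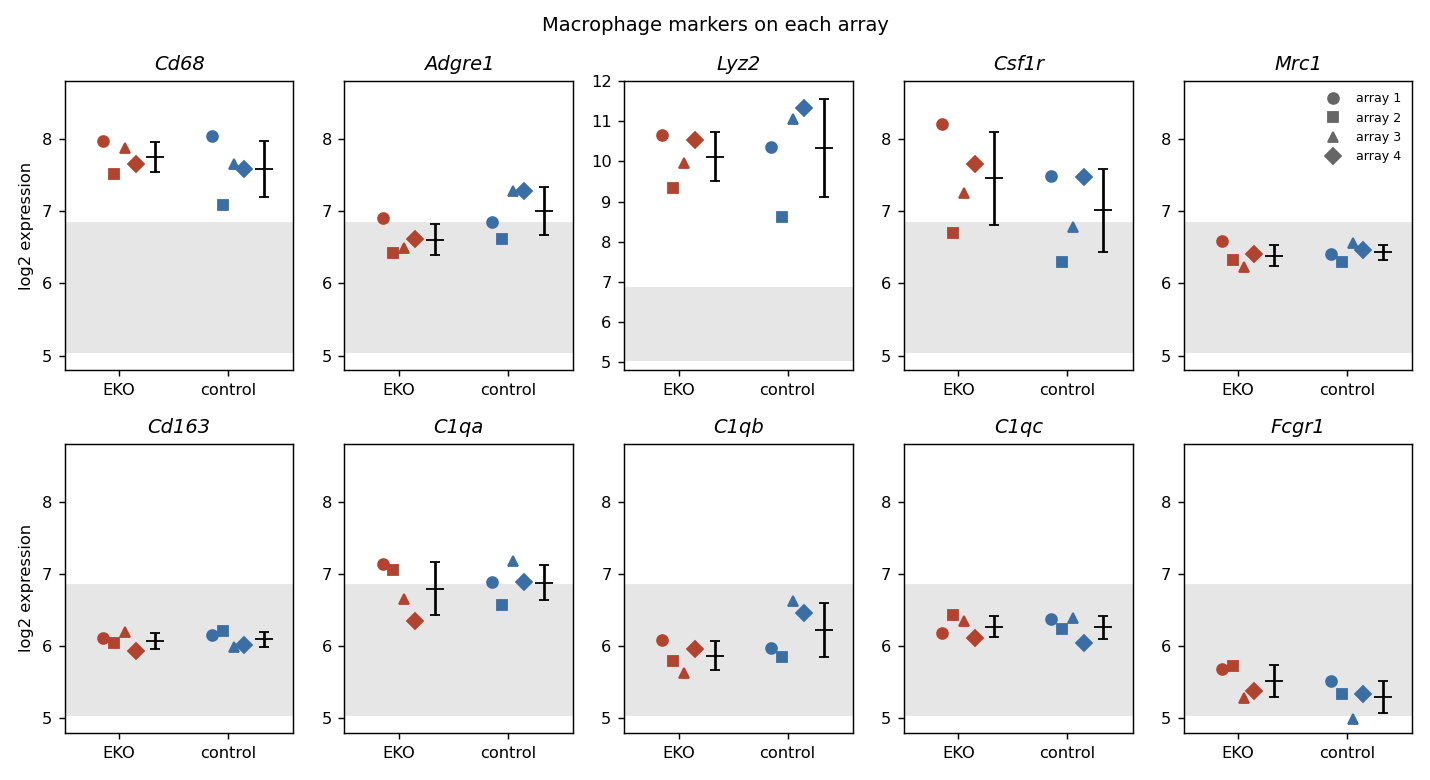
Log2 expression of the 10 macrophage markers on each array, EKO left and control right in every panel; symbols number the arrays, the bar is the mean and the whiskers 1 SD (n = 4), and the grey band runs from the lowest median to the highest 95th percentile of olfactory receptor genes (Lyz2 has its own axis). Lyz2 and Cd68 sit above the band, Cd163 and C1qc lie inside it, and Fcgr1 lies inside it on all arrays but control array 3 (5.00), which falls just below.

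None of the 10 markers differed between EKO and control aortas beyond the spread between arrays. With limma and Benjamini-Hochberg adjustment over 16232 genes, 0 of the 7 tested markers passed an adjusted p of 0.05, and the percentage of all genes called was likewise 0%, with a smallest adjusted p of 0.478 for any gene. At an unadjusted p under 0.05, 1 of the 7 markers was counted (Adgre1), where 8.93% of all genes tested were (1449). In the higher direction this was 0 of 7 markers (5.42% of genes tested), and in the lower direction 1 of 7 (3.51%). Of the 3 markers below the level requirement 0 had an unadjusted p under 0.05, where 9.03% of all 30063 genes did in that fit. The groups overlapped for all 10 markers, while 6.08% of the genes tested, and 5.91% of all genes, had groups that did not overlap. Of the 10 differences 6 lay below 0, beside 40.6% over all genes, and of the 7 tested 4 did, beside 55.1% of the genes tested. Their median was -0.03, beside -0.02 for all genes tested and 0.03 for all 30063 genes. In flushed RNA of this kind, fewer macrophages and less RNA per macrophage cannot be told apart.

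**Figure D2:**
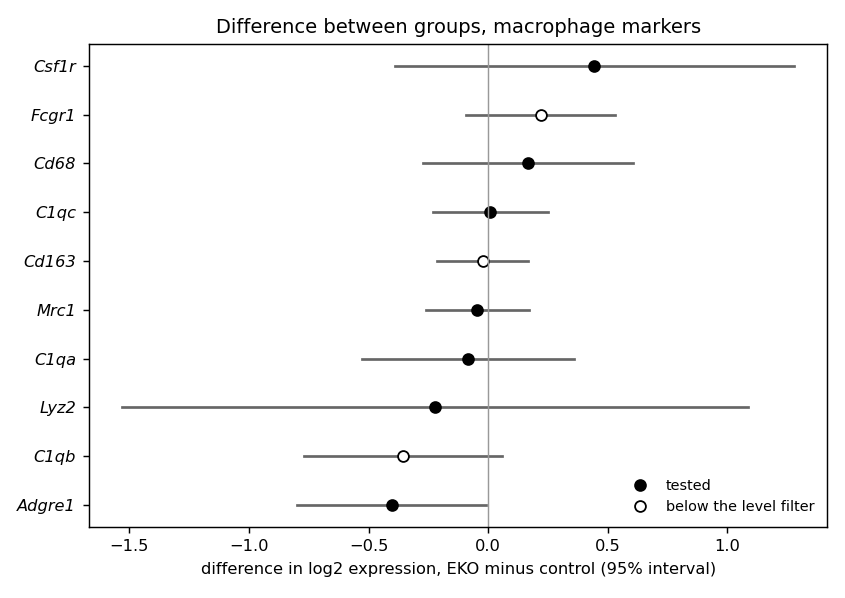
Difference in log2 expression, EKO minus control, for each macrophage marker, with the 95% interval of the limma fit (n = 4 each); open circles are the 3 genes below the level filter. The interval of Adgre1 (-0.80 to -0.01) ends just below 0, and the other 9 span 0.

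The receptor that macrophages need for survival, Csf1r, varied widely within both groups. It encodes the receptor for the growth factors CSF1 and interleukin-34. On EKO arrays 1 to 4 Csf1r read 8.21, 6.69, 7.25 and 7.66, against 7.48, 6.30, 6.78 and 7.48 on control arrays 1 to 4. EKO array 1 was the highest and control array 2 the lowest, and the groups overlapped over most of their range. The mean was 7.45 ± 0.64 in EKO and 7.01 ± 0.58 in control aortas (SD, n = 4 each). They differed by 0.44 (SE 0.37, 95% interval -0.39 to 1.28, limma adjusted p = 0.700). The difference was 0.19 without EKO array 1, 0.21 without control array 2 and 0.70 without EKO array 2. With the mean of the pan-myeloid genes described further on as a covariate it was 0.08, and with that of adipocyte markers 0.68. Its ligand Csf1, made by endothelial and stromal cells, averaged 10.4 ± 0.30 in EKO and 10.2 ± 0.11 in control aortas, a difference of 0.24 (SE 0.14, limma adjusted p = 0.624) that was 0.11 without EKO array 2. The other ligand, Il34, averaged 5.32 over the 8 arrays and passed the olfactory 95th percentile on 0 of them.

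Lyz2, the lysozyme of myeloid cells, spanned a 6.54-fold range over the 8 arrays. On EKO arrays 1 to 4 it read 10.65, 9.33, 9.97 and 10.54, against 10.35, 8.62, 11.06 and 11.33 on control arrays 1 to 4. The extremes were both control arrays, 2 at the low end and 4 at the high end, and all EKO arrays lay between them. The mean was 10.1 ± 0.61 in EKO and 10.3 ± 1.22 in control aortas (SD, n = 4 each). They differed by -0.22 (SE 0.57, 95% interval -1.53 to 1.09, limma adjusted p = 0.911). The sign turned when EKO array 2 (0.04), control array 3 (0.02) or control array 4 (0.11) was left out, and without control array 2 the difference was -0.79. Lyz1, the neighbouring lysozyme gene of Paneth cells in the gut, is close in sequence to Lyz2. Its probe set read 8.05 ± 0.22 in EKO and 8.29 ± 0.81 in control aortas and followed Lyz2 over the arrays (Pearson r = 0.97 between deviations from the group means, 8 arrays). Signal from one lysozyme transcript on the probes of the other cannot be told apart from expression of both.

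Cd68, the macrosialin of lysosomes and endosomes, varied less than Lyz2 over the arrays. It read 7.97, 7.52, 7.88 and 7.65 on EKO arrays 1 to 4, against 8.04, 7.09, 7.65 and 7.58 on control arrays 1 to 4. Control array 2 was again the lowest, and the groups overlapped. EKO aortas averaged 7.75 ± 0.21 and control aortas 7.59 ± 0.39 (SD, n = 4 each). The difference was 0.17 (SE 0.19, limma adjusted p = 0.790). Without control array 2 the difference was 0.00095.

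Adgre1, which encodes F4/80, had the smallest p of the 10. It read 6.90, 6.42, 6.49 and 6.61 on EKO arrays 1 to 4, against 6.85, 6.62, 7.28 and 7.28 on control arrays 1 to 4. Control arrays 3 and 4 stood above all EKO arrays, whereas control arrays 1 and 2 lay among them. The means were 6.61 ± 0.21 in EKO and 7.01 ± 0.33 in control aortas (SD, n = 4 each). They differed by -0.40 (SE 0.17, limma unadjusted p = 0.0467, adjusted p = 0.552), or 0.76 of the control level on the linear scale. The difference was -0.25 (SE 0.08, limma adjusted p = 0.591) with the mean of 8 adipocyte markers as a covariate. With that of the pan-myeloid genes it was -0.54 (SE 0.14, limma adjusted p = 0.378). Adipocyte markers were likewise highest on control arrays 3 (11.24) and 4 (10.92), and averaged 9.59 ± 0.96 in EKO and 10.2 ± 1.08 in control aortas. None of the 9 adipocyte markers measured read at or below the olfactory 95th percentile on every array, and Ucp1, the uncoupling protein of brown fat, followed Adgre1 with r = 0.91. Itgam, the CD11b integrin of myeloid cells, followed it with r = 0.97. The adipocyte mean itself differed by -0.59 between the groups, so the covariate fit cannot tell adipose RNA from a change in macrophages. The part of adipose RNA in the Adgre1 difference was not tested.

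The C1q chains are encoded side by side, in the order C1qb, C1qc and C1qa in the RefSeq annotation. Their products assemble into one hexameric molecule that binds antibody complexes and dying cells. C1qa read 7.13, 7.06, 6.65 and 6.34 on EKO arrays 1 to 4, against 6.89, 6.57, 7.17 and 6.89 on control arrays 1 to 4. Its groups overlapped throughout, and the difference was -0.08 (SE 0.19, limma adjusted p = 0.897). C1qb read 6.09, 5.79, 5.63 and 5.96 on EKO arrays 1 to 4, against 5.97, 5.85, 6.62 and 6.46 on control arrays 1 to 4. As with Adgre1, control arrays 3 and 4 were above every EKO array. The difference was -0.36 (SE 0.18, limma adjusted p = 0.584 in the fit without the level requirement). It was -0.20 (SE 0.10) with the adipocyte covariate, -0.48 (SE 0.17) with the pan-myeloid covariate and -0.22 without control array 3. C1qc ranged from 6.12 to 6.44 in EKO and from 6.04 to 6.39 in control aortas, a difference of 0.01 (SE 0.11, limma adjusted p = 0.980) whose sign turned with quantile normalization (-0.05), with the adipocyte covariate (-0.03) and without EKO array 2 (-0.05), EKO array 3 (-0.02) or control array 4 (-0.06). Although neighbours, the 3 chains did not share one pattern over the arrays: r between deviations from the group means was 0.50 for C1qa with C1qb, 0.38 for C1qa with C1qc and -0.32 for C1qb with C1qc.

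The scavenger receptors of resident macrophages, Mrc1 and Cd163, and the IgG receptor Fcgr1 read low and even. Mrc1, the mannose receptor, ranged from 6.23 to 6.58 in EKO and from 6.30 to 6.56 in control aortas, with a difference of -0.05 (SE 0.09, limma adjusted p = 0.885), which was 0.00592 without EKO array 3 and 0.02 with the adipocyte covariate. Cd163, the receptor for haemoglobin-haptoglobin complexes, ranged from 5.93 to 6.20 in EKO and from 5.99 to 6.21 in control aortas (difference -0.02, SE 0.08, limma adjusted p = 0.938 without the level requirement), and the sign of its difference turned under 5 of 18 alternatives. Fcgr1 ranged from 5.29 to 5.73 in EKO and from 5.00 to 5.52 in control aortas (difference 0.22, SE 0.14, limma adjusted p = 0.617 without the level requirement). The Fcgr1 difference was 0.12 without control array 3. At this level a change in transcript moves the reading less than it would higher up the scale. The narrow ranges of Mrc1 and Cd163 thus do not show that the transcripts were constant.

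Promoter sequences of RefSeq (GRCm38.p6) were matched for 7 of the 10 genes, each running from 250 bases before the transcription start to 50 after it; Adgre1, Csf1r and C1qa were not among them. They are shown for the markers that read highest, Cd68 and Lyz2, and for the neighbouring C1qb and C1qc, whose low readings followed different arrays. Each is given 5′ to 3′ on the strand of the gene, with GAGGAA or its reverse complement in capitals, the core letters bound by PU.1, the transcription factor that myeloid cells require; Lyz2 holds no match. Cd68 lies at chr11:69666121-69666420, Lyz2 at chr10:117282223-117282522, C1qb at chr4:136886151-136886450 and C1qc at chr4:136892865-136893164, all on the minus strand.
Cd68: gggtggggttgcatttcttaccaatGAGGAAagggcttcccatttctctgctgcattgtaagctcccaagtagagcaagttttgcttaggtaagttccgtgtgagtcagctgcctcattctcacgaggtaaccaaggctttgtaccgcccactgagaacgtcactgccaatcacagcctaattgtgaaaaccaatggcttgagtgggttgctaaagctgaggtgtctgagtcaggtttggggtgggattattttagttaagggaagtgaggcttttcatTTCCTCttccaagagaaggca
Lyz2: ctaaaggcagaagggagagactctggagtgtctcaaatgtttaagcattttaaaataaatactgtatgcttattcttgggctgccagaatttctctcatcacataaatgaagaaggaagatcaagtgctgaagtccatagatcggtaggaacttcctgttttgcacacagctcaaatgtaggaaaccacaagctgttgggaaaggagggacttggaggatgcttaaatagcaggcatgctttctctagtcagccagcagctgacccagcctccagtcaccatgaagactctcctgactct
C1qb: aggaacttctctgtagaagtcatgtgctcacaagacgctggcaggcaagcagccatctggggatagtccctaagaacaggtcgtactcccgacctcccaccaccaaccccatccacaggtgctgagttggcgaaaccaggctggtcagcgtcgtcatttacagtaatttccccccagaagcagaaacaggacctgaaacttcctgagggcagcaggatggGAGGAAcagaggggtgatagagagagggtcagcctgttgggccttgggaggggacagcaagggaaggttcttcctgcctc
C1qc: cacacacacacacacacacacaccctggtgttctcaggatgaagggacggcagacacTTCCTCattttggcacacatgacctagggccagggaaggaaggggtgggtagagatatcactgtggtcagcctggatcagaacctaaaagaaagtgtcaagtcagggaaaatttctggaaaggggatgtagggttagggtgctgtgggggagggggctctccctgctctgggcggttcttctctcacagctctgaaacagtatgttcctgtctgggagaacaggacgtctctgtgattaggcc

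GAGGAA occurred on either strand in 5 of the 7 promoters (Cd68, Mrc1, C1qb, C1qc and Fcgr1), and in 28.3% of all 32851 promoters in the table. In C1qb the letters began 30 bases before the start, in Fcgr1 55 and in C1qc 193, and C1qc held the longer form GAGGAAGT, which contains the shorter one and was present in 3.20% of all promoters. Cd68 held GAGGAA 225 bases before the start and again from base 30 after it, and TGANTCA, the letters of AP-1, at 149 and 24 bases before the start (7.81% of all promoters held it). The MEF2 motif, searched on both strands, was found in 0 of the 7 windows and in 3.69% of all promoters. A match in these windows is a description of letters and says nothing of binding.

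The readings of the 10 markers did not move over the arrays as one block. Among the 45 pairs of markers, r between deviations from the group means, over 8 arrays, ranged from -0.76 (Cd163 with C1qb) to 0.94 (Adgre1 with C1qb) with a median of 0.26, and 5 pairs were above 0.8. Those 5 pairs joined Adgre1, Lyz2, Mrc1 and C1qb. Of the 45 pairs 31 had r above 0. Each pair below 0 included Cd163, C1qc or Fcgr1, which passed the olfactory 95th percentile on 0 arrays. Pairs of the other markers ranged from 0.13 (Csf1r with C1qa) to 0.94. Whether the low level of Cd163, C1qc and Fcgr1 lowered their r was not tested. All markers on an array share its RNA and its normalization, so these coefficients describe the 8 arrays and carry no test.

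Csf1r moved over the arrays with a set of myeloid genes that included Cx3cr1 and Treml4. Cybb, the catalytic subunit of the phagocyte NADPH oxidase, was closest to it of all genes tested (r = 0.99). Among the genes of the marker lists Cx3cr1, the fractalkine receptor, and Treml4, a receptor of monocytes and macrophages, followed with r = 0.92 each. The lysosomal protease Ctss had 0.91. Their ranks among all genes tested were 41, 47 and 63. Cx3cr1 read 9.30, 8.18, 8.02 and 9.01 on EKO arrays 1 to 4, against 8.40, 7.37, 7.64 and 8.34 on control arrays 1 to 4. As for Csf1r, EKO array 1 was highest and control array 2 lowest. The difference was 0.69 (SE 0.34, limma adjusted p = 0.587), and that of Treml4 0.90 (SE 0.44, limma adjusted p = 0.584). The reading of Treml4 was 8.58 for EKO array 1 but at most 7.44 for EKO arrays 2 to 4, and without EKO array 1 its difference was 0.50. Treml4 and Cx3cr1 are prominent in the Ly6C-low monocytes that patrol vessel walls in mice. Of the monocyte genes described further on 7 of 8 read higher in EKO aortas, but Nr4a1 differed by -0.31 and Ace by 0.0045. With 1 array left out Nr4a1 ranged from -0.99 (without control array 2) to 0.01 (without control array 3), and Ace from -0.07 to 0.06. Their r with Csf1r was 0.76 and 0.33. Whether such monocytes differed between the groups was not tested. Treml4 and Cx3cr1 were singled out after their values had been seen, as were the other genes named here.

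Among Lyz1 and the genes of the marker lists, those closest to Lyz2 and Adgre1 included lysozyme, integrin and adipocyte genes. Besides Lyz1, Lyz2 was followed by Cbr2 (r = 0.95), a carbonyl reductase, and by Itgam (r = 0.95), the CD11b integrin of myeloid cells. Ucp1 (r = 0.94) was close to it as well. Adgre1 was followed by Itgam (r = 0.97), by Plin1 (r = 0.97), which coats fat droplets, and by Cd36 (r = 0.96), a fatty acid transporter found on adipocytes, capillary endothelium and macrophages. Genes outside the lists lay closer. Among all genes tested the ranks with Adgre1 were 56 for Itgam, 61 for Plin1 and 138 for Cd36. With Lyz2 they were 6 for Lyz1, 24 for Cbr2, 26 for Itgam and 55 for Ucp1. The patterns overlapped with that of Csf1r, whose own r with Lyz2 was 0.75. Of the listed genes closest to Csf1r, Ctss had r of 0.84 with Lyz2 and 0.74 with Adgre1, Cybb 0.81 and 0.66, Cx3cr1 0.64 and 0.56, and Treml4 0.48 and 0.47. In turn, r with Csf1r was 0.77 for Itgam, 0.76 for Ucp1, 0.75 for Plin1, 0.72 for Cd36 and 0.71 for Cbr2. Whether these coefficients differ was not tested. S100a8, a neutrophil protein, followed neither (r = 0.24 with Lyz2, -0.14 with Csf1r). It was highest on EKO array 2 (11.32), where Lyz2 read 9.33.

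**Figure D3:**
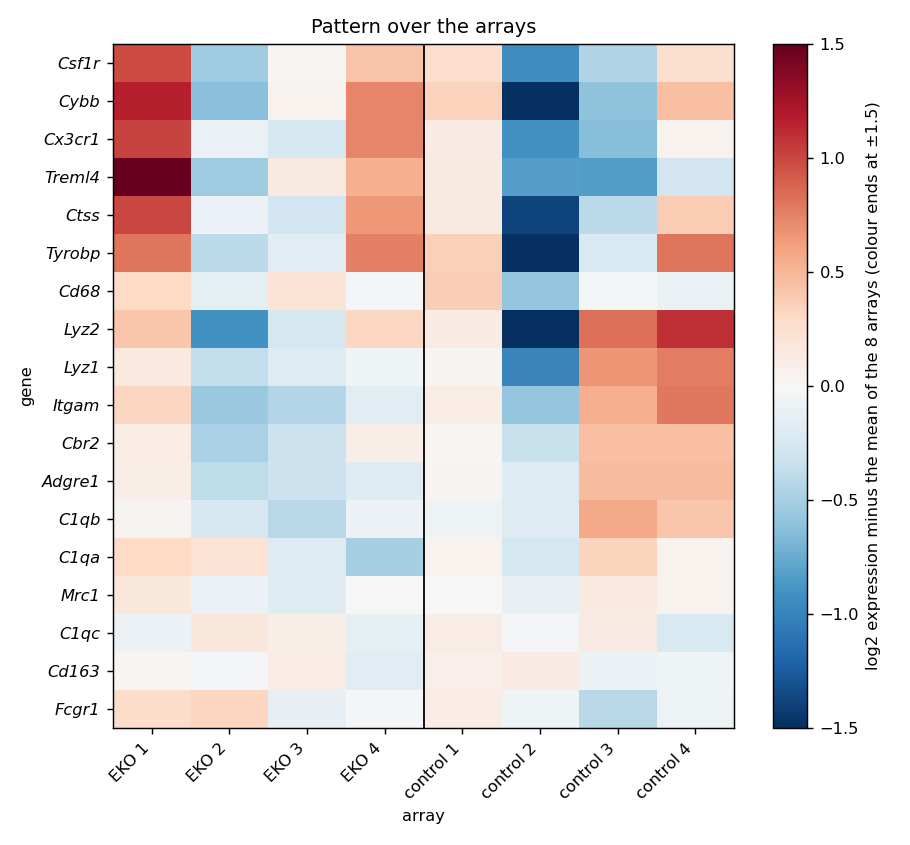
Log2 expression of the 10 macrophage markers and 8 genes named beside them, as the deviation from each gene's mean over the 8 arrays (red above, blue below; EKO arrays left, control arrays right of the line). Csf1r, Cybb, Cx3cr1, Treml4 and Ctss are highest on EKO array 1; Lyz2, Lyz1, Itgam, Cbr2, Adgre1 and C1qb are highest on control arrays 3 or 4.

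By a rule of likeness, the genes outside the marker lists whose deviations from the group means were closest to the mean deviation of the 10 markers were Ube2n (r = 0.99), Slc25a46 (0.99), Tpp2 (0.98), Crk (0.98), Pmf1 (0.97), Sntb1 (0.97), Rheb (0.97), Gpam (0.97), Nabp1 (0.97) and Serpinb1c (0.96), over 8 arrays. Above 0.9 lay 110 of the 16232 genes tested. Lyz2 and Csf1r had the widest spread of the 10 markers. The mean deviation was 0.27 on EKO array 1, the highest, and -0.40 on control array 2, the lowest. None of these 10 genes passed the test between the groups, with limma adjusted p between 0.609 and 0.982.

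General myeloid genes had higher readings in EKO aortas more often than not, and none passed. Of the 12 tested pan-myeloid genes, 11 read higher in EKO aortas, with a median difference of 0.41, beside -0.02 over all genes tested, of which 44.9% read higher. The common leukocyte phosphatase Ptprc (CD45) differed by 0.77 (SE 0.44, limma adjusted p = 0.618; 0.37 without control array 2), the tetraspanin Cd53 by 0.36 (SE 0.20) and the Fc receptor gamma chain Fcer1g by 0.44 (SE 0.26). The size of this difference rested in part on control array 2. Its mean over the 12 genes was 6.68, whereas the means were 7.46 to 8.28 on EKO arrays and 7.44 to 8.11 on the other control arrays. Without it, 9 of 12 read higher and the median difference was 0.17. Some of these genes mark all leukocytes, lymphocytes included.

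Monocyte genes were higher in EKO aortas in 7 of 8 tested cases (median difference 0.23, and 0.13 without control array 2 or 0.11 without EKO array 2), and 0 passed. Besides Treml4, Ms4a4c differed by 0.47 and Plac8 by 0.44. Markers of resident vessel-wall macrophages were higher in 8 of 12 (median 0.05, and -0.01 without control array 2), with 0 past the threshold. Among them 1 of the 12, the C-type lectin Cd209f, had groups that did not overlap, a share close to the 6.08% of all genes tested. It ranged from 6.62 to 6.72 on EKO arrays and from 6.47 to 6.61 on control arrays, and it passed the olfactory 95th percentile on 2 of the 8. The difference was 0.16 (SE 0.06, limma adjusted p = 0.550). Cbr2 differed by -0.30 (SE 0.21). Of the 16 resident macrophage markers measured, 5 passed the olfactory 95th percentile on all 8 arrays, 5 on some and 6 on 0. Over all 30063 genes, 41.2% passed on all 8 and 49.0% on 0. The 5 that passed on all 8 were Cx3cr1, Pf4, Gas6, Cbr2 and Selenop. Among the 6 were Timd4, Vsig4 and Folr2, the folate receptor of resident macrophages, which averaged 5.64 over the arrays. Lyve1, found on resident arterial macrophages and on lymphatic endothelium, passed on 2.

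**Figure D4:**
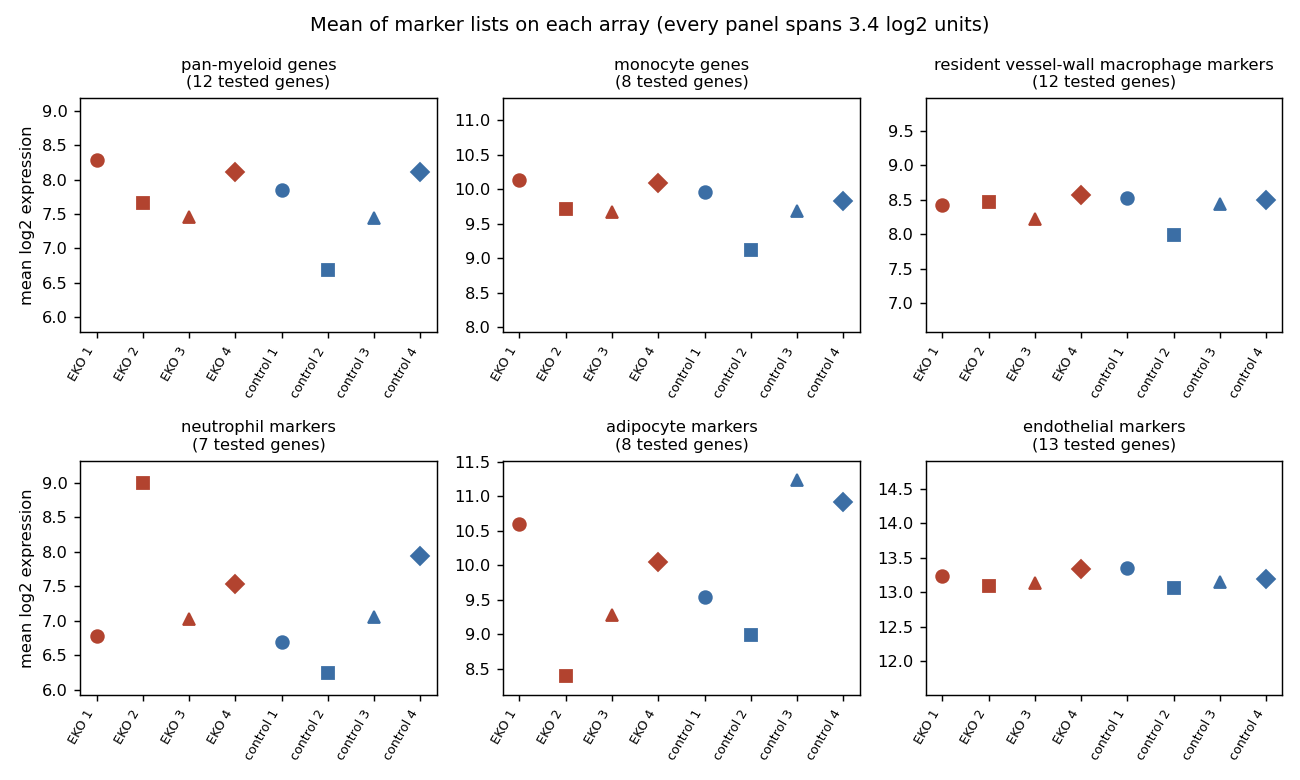
Mean log2 expression of the tested genes of 6 marker lists on each array (EKO red, left; control blue, right); every panel spans the same number of log2 units. Control array 2 is the lowest for the pan-myeloid, monocyte, resident macrophage and neutrophil lists, EKO array 2 is the highest for neutrophil markers, and endothelial markers stay between 13.07 and 13.35.

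The other macrophage programmes held no gene past the threshold either. Of 8 tested lysosomal enzymes and membrane proteins 7 read lower in EKO aortas (median -0.09), among them the protease Ctsl (-0.22) and Lamp1 (-0.13), while Ctss stood at 0.64. Of 9 tested scavenger and lectin receptors 4 were higher and 5 lower (median -0.0028), with Marco at 0.17, the receptor tyrosine kinase Axl at -0.17 and Clec4a2 at 0.07. Of 4 tested Fc receptor genes 3 were higher, with the neonatal receptor Fcgrt at -0.12 and the inhibitory Fcgr2b at 0.14. Of 5 tested genes of the classical complement pathway 3 were higher, with the protease C1ra at 0.14, C4b at -0.56 and the C1 inhibitor Serping1 at 0.35. Of 6 tested genes of lipid-associated macrophages 4 were higher (median 0.06), with Itgax at 0.40, Apoe at 0.23 and Lgals3 at 0.10. Of 5 tested lineage transcription factors 2 were higher, with Irf8 at 0.23, Maf at -0.18 and Cebpa, which adipocytes also express, at -0.22. Of the 13 macrophage cytokines and chemokines 2 reached the level required for the test, Il1b at 0.41 and Retnla at -0.34. The smallest limma adjusted p among the genes named in these lists was 0.567, for Itgax. These counts and medians moved when 1 array was left out. Single genes moved as well: Cebpa ranged from -0.71 to 0.25 (without EKO array 2), Maf from -0.28 to -0.0087 and Serping1 from 0.03 to 0.56. Irf8 ranged from 0.17 to 0.32. The lysosomal median ranged from -0.12 to -0.04 (without EKO array 4), and the lipid-associated genes from 3 to 6 higher of 6, with a median of 0.18 without EKO array 2. The transcription factors ranged from 1 to 4 higher of 5 (4 without EKO array 2 or control array 3), the complement genes from 2 to 4 of 5, the scavenger and lectin receptors from 3 to 6 of 9 and the Fc receptor genes from 2 to 3 of 4. The medians of the last 4 lists lay on both sides of 0.

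Markers of other cells varied between arrays of the same group. Neutrophil markers averaged 7.58 ± 1.00 in EKO and 6.98 ± 0.72 in control aortas (SD, n = 4 each), and 7 of 7 tested read higher in EKO aortas. Their median difference of 0.46 was 0.06 without EKO array 2. Endothelial markers averaged 13.2 ± 0.11 in EKO and 13.2 ± 0.12 in control aortas. Smooth muscle markers averaged 7.92 ± 0.23 in EKO and 7.76 ± 0.16 in control aortas. Fibroblast markers averaged 8.40 ± 0.23 in EKO and 8.71 ± 0.27 in control aortas. T and NK cell markers averaged 7.20 ± 0.46 in EKO and 6.95 ± 0.29 in control aortas, and 5 of 5 tested read higher in EKO aortas (median difference 0.23). Without EKO array 2 this was 3 of 5 (median 0.03). Mast cell markers averaged 6.39 ± 0.25 in EKO and 6.67 ± 0.37 in control aortas, and dendritic cell markers 7.86 ± 0.08 in EKO and 7.70 ± 0.19 in control aortas. Prox1, the defining factor of lymphatic endothelium, averaged 4.95 over the arrays, within the range of the olfactory receptor genes. The part of these cells in the readings of the 10 markers was not tested.

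Mef2c itself read 9.75 ± 0.20 in EKO and 9.77 ± 0.11 in control aortas (difference -0.03, SE 0.11, limma adjusted p = 0.946). One probe set summarises all its exons, and the floxed exons are not given in the sources used here, so this does not check the deletion. Over the genes tested, r between any 2 arrays lay between 0.981 and 0.993.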

How the data were processed

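Each of 8 aortas was measured on 1 Affymetrix Mouse Transcriptome Array 1.0 from 5 ng of total RNA, per the labels. The authors deposited 1 log2 value for each probe set and array, from the SST-RMA method of Expression Console, per the labels. As background, RMA methods correct background and put arrays on a common distribution, which removes overall signal differences between arrays. The software version and genome build are not given in the sources used here. Precision is limited by how many arrays there are.

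Of 72688 probe sets, 30604 had 1 symbol in the platform annotation, 2146 had several and 33206 were unlisted; 6732 were controls. Symbols were updated through RefSeq (GRCm38.p6), which changed 1135 and matched 30602. For genes with several probe sets the highest mean was used. The test took the 16232 genes whose mean exceeded 6.14 (the median over every probe set). limma 3.58.1 in R 4.3.3 compared EKO with control (lmFit, eBayes, Benjamini-Hochberg, threshold 0.05). The test was also run on simulated data, in which genes varied independently of each other. Differences are EKO minus control. Members and lists were chosen with earlier results of these data known. Genes named are the 10 markers, up to 3 tested genes with the smallest p of each macrophage list, the 10 genes most like the markers, Lyz1 and Mef2c; others were chosen after their values were seen, and lists of other cell types are given mostly as means.

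Alternatives covered the level filter, probe sets, scaling, variance model, array weights, covariates, the replicate number as a block, and each array left out. A pan-myeloid covariate and the lists with arrays left out were added after seeing the data.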

Additional observations from a re-analysis of the deposited data

How the results depend on the processing

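With limma, 0 genes and 0 of the macrophage markers passed the adjusted threshold under every alternative run, with smallest adjusted p over all genes between 0.169 (without EKO array 1) and 0.797 (without EKO array 2); 1449 genes had an unadjusted p under 0.05. With the replicate number as a block, 0 genes passed, the smallest adjusted p was 0.433 and the median difference over the markers was -0.03. Deviations of same-numbered arrays correlated at -0.16, 0.21, -0.24 and 0.13, and no EKO array correlated best with its own number. These values over all genes tested gave no sign of pairing by number but cannot exclude it. With the block the SE was smaller for some markers (Csf1r 0.11, beside 0.37 in the main fit) and larger for others (C1qa 0.21, beside 0.19). The signs of Cd68, Adgre1, Csf1r, C1qb and Fcgr1 held under all 18 alternatives that gave each a value, though Csf1r was 0.08 with the pan-myeloid covariate. Some of the 18 could not change a difference here: no level filter, the other variance model, the replicate block and the mean of probe sets. Signs turned, always without a call, for C1qa without EKO array 4 (0.066) and control array 3 (0.01), for C1qc with quantile normalization (-0.052), the adipocyte covariate (-0.035) and without EKO arrays 2 (-0.05) and 3 (-0.02) or control array 4 (-0.063), for Lyz2 with the adipocyte covariate (0.28) and without EKO array 2 (0.04) or control arrays 3 (0.02) and 4 (0.11), for Cd163 (main -0.022) with median centring (0.013), array weights (0.0064) and the pan-myeloid covariate (0.017) and without EKO array 4 (0.027) or control array 2 (0.016), and for Mrc1 with the adipocyte covariate (0.017) and without EKO array 3 (0.00592); with 1 array left out C1qa ranged from -0.20 to 0.066, C1qc from -0.063 to 0.060, Lyz2 from -0.79 to 0.11 and Mrc1 from -0.11 to 0.00592. The cause was not tested. Over the markers the median difference lay between -0.10 (quantile normalization) and 0.04 (without EKO array 4), and was 0.0016 with median centring. Under a filter at the 75th percentile, Lyz2 was the single marker left. Most markers read near the low end of the arrays, where differences are compressed, and 4 arrays a group limit what can be detected.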
